A study of Arabidopsis thaliana with 18 samples.

Results

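AT1G62170 is an Arabidopsis thaliana gene of the serpin family, proteins known as protease inhibitors. It is followed here through 1 probe set out of 22810 on the Affymetrix ATH1 array. The probe set was matched by locus, and it is the only 1 of the gene in the annotation used. The gene was chosen for a rise in 1 line alone, the VND6 line, so its changes from 0 h to 12 h, and the differences between lines in those changes, are given as descriptions with no test.

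The arrays come from cultured Arabidopsis suspension cells of 3 kinds: wild-type (wt) cells without a transgene, cells transformed with an estrogen-inducible VND6, and cells transformed with an estrogen-inducible SND1. VND6 and SND1 are transcription factors of the NAC family, known as switches for xylem vessel formation and for the thickened walls of fibres. Cells of each kind were taken at 0 h and at 12 h after addition of 2 µM estrogen, with 3 arrays in each of 6 groups and 18 in all, to follow the first events that each factor sets off. All 12 h groups, wt included, had received estrogen, and no group was kept for 12 h without it, so estrogen and time in culture cannot be told apart. Whether a transformed line is 1 clone is not given in the labels, and the transcripts of VND6 and SND1 were not analysed here.

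Serpins are known to act as suicide traps: the target protease cuts an exposed loop of the inhibitor, which then springs into a new shape and holds the enzyme in a covalent complex. In Arabidopsis the best studied member, SERPIN1, is known to act on papain-like cysteine proteases and on metacaspases. Forming vessel cells are known to build a patterned secondary wall and then to digest their own contents with a set of proteases and nucleases. The labels and the annotation name no protease as the target of AT1G62170.

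The serpin signal was near the floor in 5 of the 6 groups and high in VND6 cells at 12 h. In VND6 cells at 12 h the linear signal was 2239.8, 3897 and 4623 in replicates 1, 2 and 3, with a mean of 3587 ± 1222 (SD, n = 3). In the same line at 0 h it was 1.48, 23.8 and 2.89, with a mean of 9.39 ± 12.5 (SD, n = 3). The 2 times did not overlap, and the lowest 12 h array stood 38.2 times above the highest of the 15 arrays of all other groups. Of the tested probe sets, 2.5% had all 3 VND6 arrays at 12 h above all 15 others; since the serpin was chosen for this pattern, nothing is read from that share.

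In wt cells the signal was 35.2, 3.24 and 28.3 at 0 h and 16.2, 30.03 and 37.6 at 12 h. The ranges of the 2 times overlapped, with replicate 2 at 0 h the lowest of the 6 arrays. In SND1 cells it was 28.4, 17.8 and 23.3 at 0 h and 40.2, 58.7 and 57.0 at 12 h. All 3 SND1 arrays at 12 h were above the 3 at 0 h, and also above each of the 12 arrays other than VND6 at 12 h. That order held for 9.63% of the tested probe sets. All 3 SND1 arrays at 12 h were still below the median of their own arrays, at 0.306, 0.457 and 0.432 of it. The choice of the gene for a rise in VND6 cells alone therefore covers a small step in SND1 cells too, which by that choice carries no test.

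**Figure D1:**
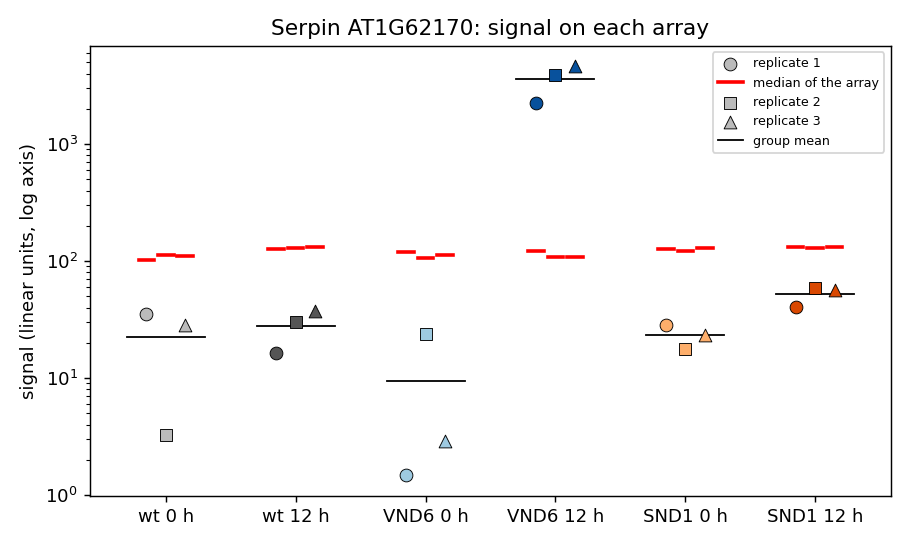
Linear signal of the serpin AT1G62170 on each of the 18 arrays (log axis), by line and time. Symbols are replicates, black lines group means and red lines the median of each array; the 3 VND6 arrays at 12 h sit at 2239.8 to 4623 and the other 15 arrays at 1.48 to 58.7, below their array medians.

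Ordered by mean signal, VND6 cells at 12 h stood first at 3587. SND1 cells at 12 h followed at 52.0 ± 10.2, then wt cells at 12 h at 27.9 ± 10.8 (SD, n = 3 each). SND1 cells at 0 h had 23.1 ± 5.30, wt cells at 0 h 22.2 ± 16.8 and VND6 cells at 0 h 9.39 ± 12.5 (SD, n = 3 each). The ranges of the first and the next group in this order did not overlap. Those of SND1 and wt cells at 12 h did not overlap either, with the lowest SND1 array at 40.2 and the highest wt array at 37.6. How many probe sets show such an order between these 2 groups was not counted, so nothing is read from it. Among the last 4 groups the range of each overlapped that of its neighbour in this order. With 3 arrays each, such overlap cannot show that they do not differ, and their differences were given no test. The mean in VND6 cells at 12 h was 69.0 times that in SND1 cells and 128 times that in wt cells at the same time, and the SND1 mean was 1.86 times the wt mean. These are ratios of deposited signals with the lower groups near the floor, where no detection calls were used, so their size is not a firm fold.

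The place of the serpin among all probe sets of an array gives the same picture without any scaling between arrays. It stood at percentiles 92.9, 95.9 and 96.6 on the VND6 arrays at 12 h. On the other 15 arrays it lay between percentile 2.73, in VND6 replicate 1 at 0 h, and 39.3, in SND1 replicate 2 at 12 h. In VND6 cells at 12 h the signal was 18.3, 36.2 and 42.3 times the median of the array. Testing was limited to probe sets at or above percentile 40 on 3 or more arrays, so the serpin entered the fit through its 3 VND6 arrays at 12 h and through no other.

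On the log2(signal + 4.32) scale, used for all changes below, the difference between 12 h and 0 h in VND6 cells was 8.60, 7.12 and 9.33 in replicates 1, 2 and 3, with a mean of 8.35 ± 1.13 (SD, n = 3). In wt cells it was -0.94, 2.18 and 0.36, with a mean of 0.53 ± 1.57. In SND1 cells it was 0.45, 1.51 and 1.15, with a mean of 1.04 ± 0.54. All 3 VND6 replicates lay above all 6 of the other lines. The signs were mixed in wt cells, where the mean was -0.21 without replicate 2 at 0 h, and were positive in all 3 SND1 replicates.

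The VND6 change exceeded the wt change by 7.81 and the SND1 change by 7.31, and the SND1 change exceeded the wt change by 0.50. The last of these was 0.06 without wt replicate 1 at 0 h, 0.20 without wt replicate 3 at 0 h, 0.21 without wt replicate 1 at 12 h and 1.25 without wt replicate 2 at 0 h. Over all 15715 tested probe sets the corresponding medians were -0.22, -0.04 and -0.20. Only 4 probe sets had a larger difference between the VND6 and the SND1 change, 20 a larger difference between the VND6 and the wt change, and 12 a larger change in VND6 cells. Pseudocounts matter for a gene that starts near the floor: the VND6 change was 9.52 with none and 7.11 with one 4 times larger.

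The 20 probe sets with the largest VND6 changes, from 7.63 to 9.85, set the serpin in context. Their changes in SND1 cells ran from -1.10 to 9.03 with a median of 5.72, against 1.04 for the serpin, and only 3 of the 20, the serpin counted, were at or below 1.04. PRX72 (AT5G66390), a peroxidase, was another of the 3, at -0.37 in SND1 cells and 7.63 in VND6 cells. In wt cells the changes of the 20 ran from -1.28 to 2.59. The comparisons share arrays and the 20 were picked by their size, so these values describe where the serpin lies and no more.

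**Figure D2:**
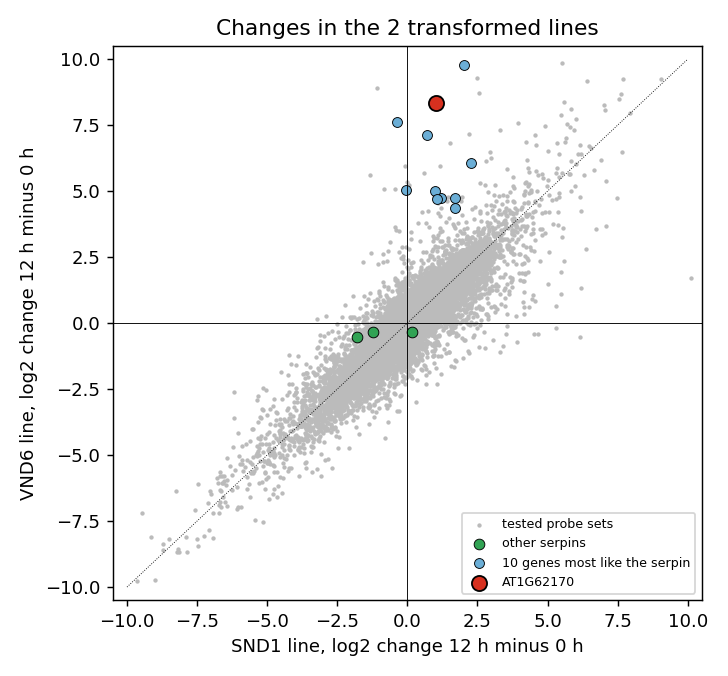
Log2 change from 0 h to 12 h in the SND1 line (x axis) and in the VND6 line (y axis) for the 15715 tested probe sets, with the line of equal change dotted. The serpin (red) lies at 1.04 and 8.35; the 3 other tested serpins (green) lie near 0 on the y axis, and the 10 genes most like the serpin (blue) lie above the dotted line.

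Before estrogen, the serpin signal was at the dim end of the arrays in all 3 lines, from 1.48 to 35.2, and below percentile 40 on each of the 9 arrays. It was fitted only because of its signal in VND6 cells at 12 h, so the differences between lines at 0 h are given with no test. VND6 cells stood at -1.02 and SND1 cells at 0.34 against wt cells. The second value was -0.40 without wt replicate 2. The first was -1.77 without that array and -1.72 without VND6 replicate 2. It was -0.57 without wt replicate 1, -0.58 without VND6 replicate 1, -0.71 without wt replicate 3 and -0.74 without VND6 replicate 3. The ranges of VND6 and wt cells overlapped, as did those of SND1 and wt cells.

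The family was surveyed next, through 12 other serpin loci, of which 8 were named on the array and 3 were bright enough to be tested. None of the 3 passed in the VND6 response beyond wt, which is the VND6 change minus the wt change, where 13.8% of all probe sets passed. None passed in the SND1 response beyond wt either, where 5.87% did. At an unadjusted p under 0.05 the counts were 0 in both. No share over all probe sets was taken at that threshold, and 3 genes are too few to speak for the family. SERPIN1 (AT1G47710) had the steadiest signal of the 4 tested serpins, from 609 to 1160.1 over the 18 arrays, with a mean of 868 ± 224 in VND6 cells at 12 h and 1069 ± 77.6 at 0 h (SD, n = 3). Its VND6 response beyond wt was -0.52 (95% interval -1.15 to 0.11; limma adjusted p = 0.264).

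AT1G64010 stood at 2.03 in the VND6 response beyond wt (95% interval -0.01 to 4.08; limma adjusted p = 0.175), with a signal of 104 ± 16.0 at 0 h and 14.6 ± 6.81 at 12 h in wt cells. In VND6 cells it was 46.1 ± 25.7 and 35.4 ± 29.2 at these times (SD, n = 3). AT2G35590 stood at 0.27 (95% interval -1.45 to 2.00; limma adjusted p = 0.870), with a signal of 83.4 ± 26.1 in VND6 cells at 12 h. Among the 5 serpins too dim to test was AT1G62160, the neighbouring gene on the chromosome, with 0.627 to 25.2 over the 18 arrays and 3.27, 16.4 and 4.07 in VND6 cells at 12 h. The other 4 ranged from 0.647 to 67.2 over all arrays, and none had its 3 VND6 arrays at 12 h above the rest.

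**Figure D3:**
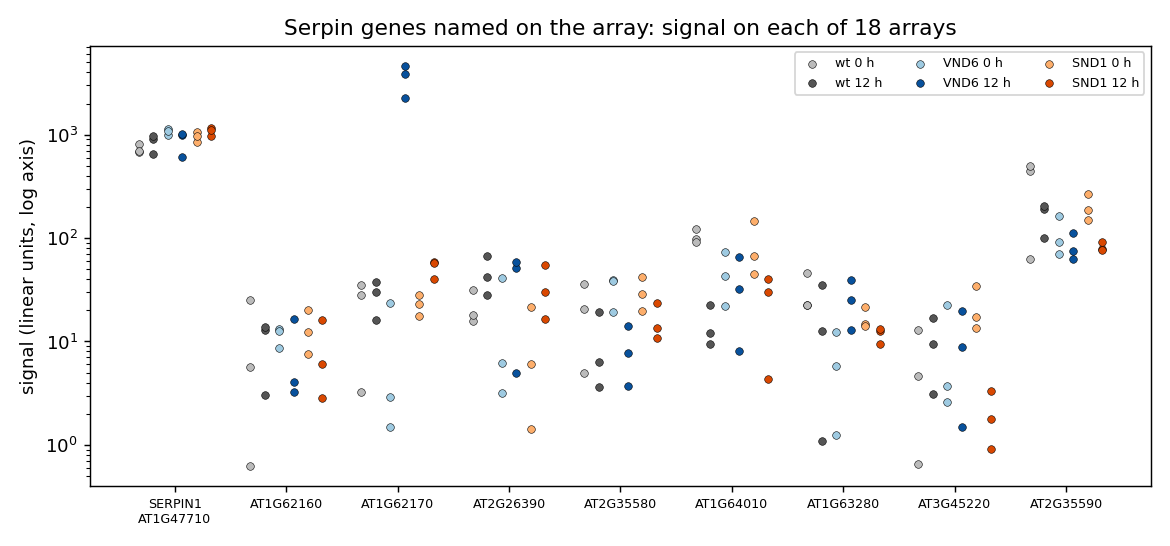
Linear signal (log axis) of the 9 serpin genes named on the array, on each of the 18 arrays, coloured by line and time. The 3 VND6 arrays at 12 h stand apart for AT1G62170 and for none of the 8 others; SERPIN1 is at 609 to 1160.1 throughout.

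Genes near the serpin were looked at through the 10 protein-coding genes on each side of it. Of these 20, 9 were named on the array, 5 were tested, 0 were higher and 1 was lower in the VND6 response beyond wt, where 5.84% of all probe sets were higher and 7.99% lower. The 1 was AT1G62150, with a response of -1.87 (SE 0.48; limma adjusted p = 0.0174). In the SND1 response beyond wt it stood at -1.47 and did not pass (limma adjusted p = 0.0818). Its mean signal went from 259 ± 102 to 1623 ± 95.9 in wt cells and from 631 ± 67.7 to 1256 ± 749 in VND6 cells (SD, n = 3). In SND1 cells it went from 481 ± 108 to 1132 ± 30.4 (SD, n = 3), so both transformed lines had a higher mean than wt cells at 0 h. The call in the VND6 response was lost without VND6 replicate 2 (adjusted p = 0.0577) or replicate 3 (adjusted p = 0.0554) at 12 h in limma.

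The genes whose pattern was most like the serpin were found by Pearson's r of log2 values over the 18 arrays, among tested probe sets of 1 gene. The 10 highest had r from 0.908 to 0.964. The points share arrays, and r rests on the 3 VND6 arrays at 12 h: over the other 15 it ran from -0.16 to 0.64. AT5G26330 came first (r = 0.964), with a signal of 5886 ± 1207 in VND6 cells at 12 h and 32.7 ± 17.4 in SND1 cells at 12 h (SD, n = 3). AT1G23460, read by a probe set whose suffix marks cross-reaction with similar transcripts, came next (r = 0.947), with 5646 ± 2232 and 87.7 ± 36.8.

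GSTU22 (r = 0.945) is a tau class glutathione transferase, and AT3G18670 followed at r = 0.938. PRX72 (r = 0.934), a class III peroxidase, had 1629 ± 24.6 in VND6 cells at 12 h and 2.42 ± 0.673 in SND1 cells at 12 h (SD, n = 3). AT4G28650, annotated as the receptor kinase-like gene PXL2, had r = 0.924 and was the member of the 10 with the highest SND1 signal at 12 h, 199 ± 25.0. AT3G48460 and AT1G10800 had the same r of 0.924. SBTI1.1 (AT1G01900), a subtilisin-type serine protease, had r = 0.914 over 18 arrays and -0.16 over the other 15, with 1306 ± 363 in VND6 cells at 12 h and 24.0 ± 4.71 in SND1 cells at 12 h (SD, n = 3). AT4G08160, with the synonym ATXYN3, closed the 10 at r = 0.908. The serpin signal in SND1 cells at 12 h, 52.0, lies within the span of these 10.

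**Figure D4:**
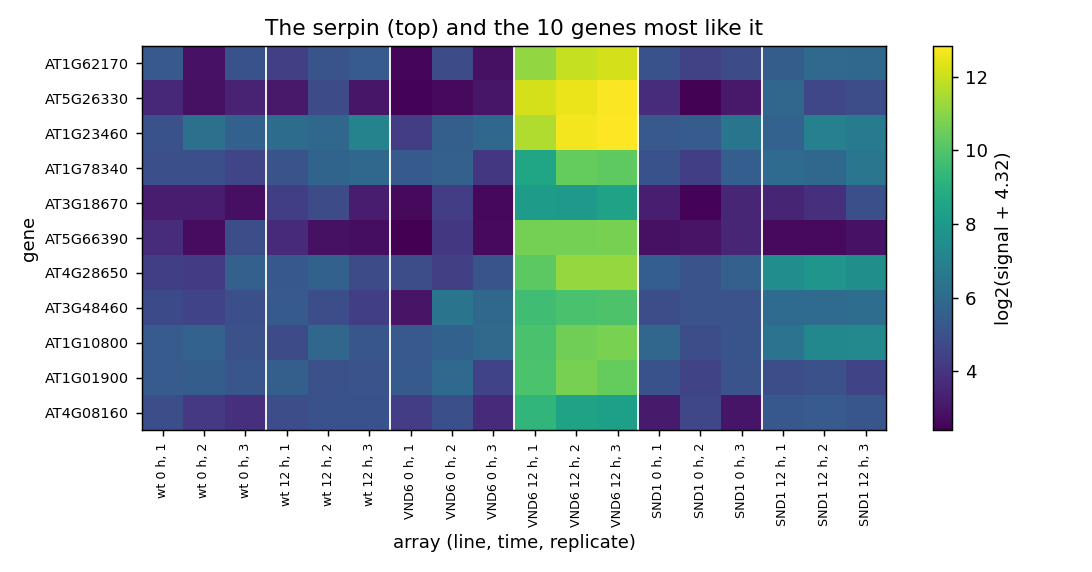
Log2(signal + 4.32) of the serpin AT1G62170 (top row) and of the 10 genes with the highest Pearson's r to it, from 0.964 downwards, on each of the 18 arrays. The 3 VND6 arrays at 12 h are the bright block in every row; AT4G28650, at 199 ± 25.0 (SD, n = 3), is the brightest of the 10 in SND1 cells at 12 h on the linear scale.

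Other protease inhibitors were measured beside the serpin as a list of cystatins, Kunitz-type, trypsin and other small inhibitors, of which 14 of 28 were named and 10 tested. In the VND6 response beyond wt 1 was higher, 1 was lower and 8 did not pass, against 5.84% higher and 7.99% lower over all probe sets. The list's median was -0.20, beside -0.22 over all tested. AT5G05110 had a higher response (0.86, SE 0.25; limma adjusted p = 0.0343), and AT5G47550 a lower one (-2.03, SE 0.53; limma adjusted p = 0.0192). Both fell from 0 h to 12 h in VND6 cells, by 2.25 and 3.68, as 24.7% of all probe sets did. AT5G05110 ended at like signals at 12 h, 371 ± 33.2 in VND6 and 379 ± 84.7 in wt cells (SD, n = 3). Against wt cells at 0 h it stood lower, at -0.87 in VND6 cells (limma adjusted p = 0.00827) and at -0.996 in SND1 cells (limma adjusted p = 0.00856), where 8.51% and 2.34% of all probe sets passed in either direction. Its higher response goes with that lower starting level. Leaving out single arrays ended the AT5G05110 call for 8 of 12 (adjusted p at most 0.0942), all but the first wt and second VND6 replicate of 0 h and the second wt and first VND6 replicate of 12 h. For AT5G47550 the call ended without replicate 2 or 3 of wt or VND6 cells at 12 h (adjusted p at most 0.0591). AT2G43535, with the next smallest p, stood at -1.57 (limma adjusted p = 0.0573). In the SND1 response beyond wt 1 of the 10 was higher, AT5G05110 at 1.17 (SE 0.25; limma adjusted p = 0.0128), and 9 did not pass, against 3.47% higher and 2.4% lower over all probe sets.

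Proteases that serpins could meet were listed as papain-like cysteine proteases, with 19 of 32 named and 13 tested, and as metacaspases and vacuolar processing enzymes, with 4 of 13 named and 3 tested. XCP1, XCP2, RD21A and all 9 metacaspases were not analysed here. In the VND6 response beyond wt, 0 of the 13 papain-like genes were higher, 1 was lower and 12 did not pass, with a median of -0.11 beside -0.22 over all tested. Over all probe sets 5.84% were higher and 7.99% lower. The 1 was AT4G16190 at -0.75 (SE 0.23; limma adjusted p = 0.0428). It fell in all 3 lines, with changes of -5.09 in wt, -5.84 in VND6 and -4.56 in SND1 cells. Leaving out single arrays ended the AT4G16190 call for 9 of 12 (adjusted p at most 0.103), all but replicate 1 of both wt groups and of VND6 cells at 0 h. AT3G45310 stood at -1.10 (limma adjusted p = 0.067) and AT3G49340 at -1.05 (limma adjusted p = 0.197). In the SND1 response 2 were higher and 11 did not pass, where 3.47% of all probe sets were higher. The 2 were AT1G29090 at 3.83 (SE 0.60; limma adjusted p = 0.00121) and AT1G02305 at 1.18 (SE 0.27; limma adjusted p = 0.0153). AT1G29090 rose in SND1 cells, from 1170.2 ± 626 to 6418 ± 1302 (SD, n = 3). AT1G02305 fell in SND1 cells, from 4125 ± 908 to 1082 ± 88.9, and in wt cells, from 5843 ± 477 to 687 ± 119 (SD, n = 3). Its higher SND1 response is thus a smaller fall. In the difference between the VND6 and the SND1 response AT1G29090 and AT4G16190 were lower, 2 of 13, where 0.305% of all probe sets were lower. The AT1G02305 call was lost without SND1 replicate 2 at 0 h (adjusted p = 0.0517). Of the 3 vacuolar processing enzymes, proteases of the vacuole, none passed in either response, where 13.8% of all probe sets did for VND6 and 5.87% for SND1. In the VND6 response BETA-VPE stood at -0.76, ALPHA-VPE at -0.68 and GAMMA-VPE at -0.12.

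Genes of xylem autolysis, of which 4 of 7 were tested, serve here as a yardstick for the serpin. In each response beyond wt 3 were higher and 1, SCPL49, did not pass, where 5.84% of all probe sets were higher for VND6 and 3.47% for SND1. SCPL48 (AT3G45010), a serine carboxypeptidase-like protein, had a VND6 response of 5.82 and an SND1 response of 4.75, AT4G18425 had 4.80 and 5.17, and AT4G04460 had 2.81 and 4.13. In wt cells the 4 genes fell, with changes of -2.37 to -0.88, and these falls add to each response beyond wt. The change in VND6 cells was 3.45 for SCPL48, 3.17 for AT4G18425 and -0.45 for SCPL49. For AT4G04460 it was 0.95 (limma adjusted p = 0.223), and for the serpin 8.35. In mean signal in VND6 cells at 12 h SCPL48 stood at 20702.5, SCPL49 at 1232, AT4G18425 at 292 and AT4G04460 at 95.7, against 3587 for the serpin. At 0 h the 4 stood at 1949, 1693, 29.7 and 47.9 in that order. The serpin stood at 9.39, near the floor, where the size of a log2 change depends on the pseudocount. In SND1 cells the changes of the 4 ran from -0.37 to 3.54. None of the 4 passed in the difference between the VND6 and the SND1 response, where 0.745% of probe sets did; the serpin's own values in the 2 responses were 7.81 and 0.50. For AT4G04460 the VND6 call (limma adjusted p = 0.0473) ended on leaving out any of 9 of 12 arrays (adjusted p at most 0.104), all but the last wt replicate of 0 h and the second wt and first VND6 replicate of 12 h.

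**Figure D5:**
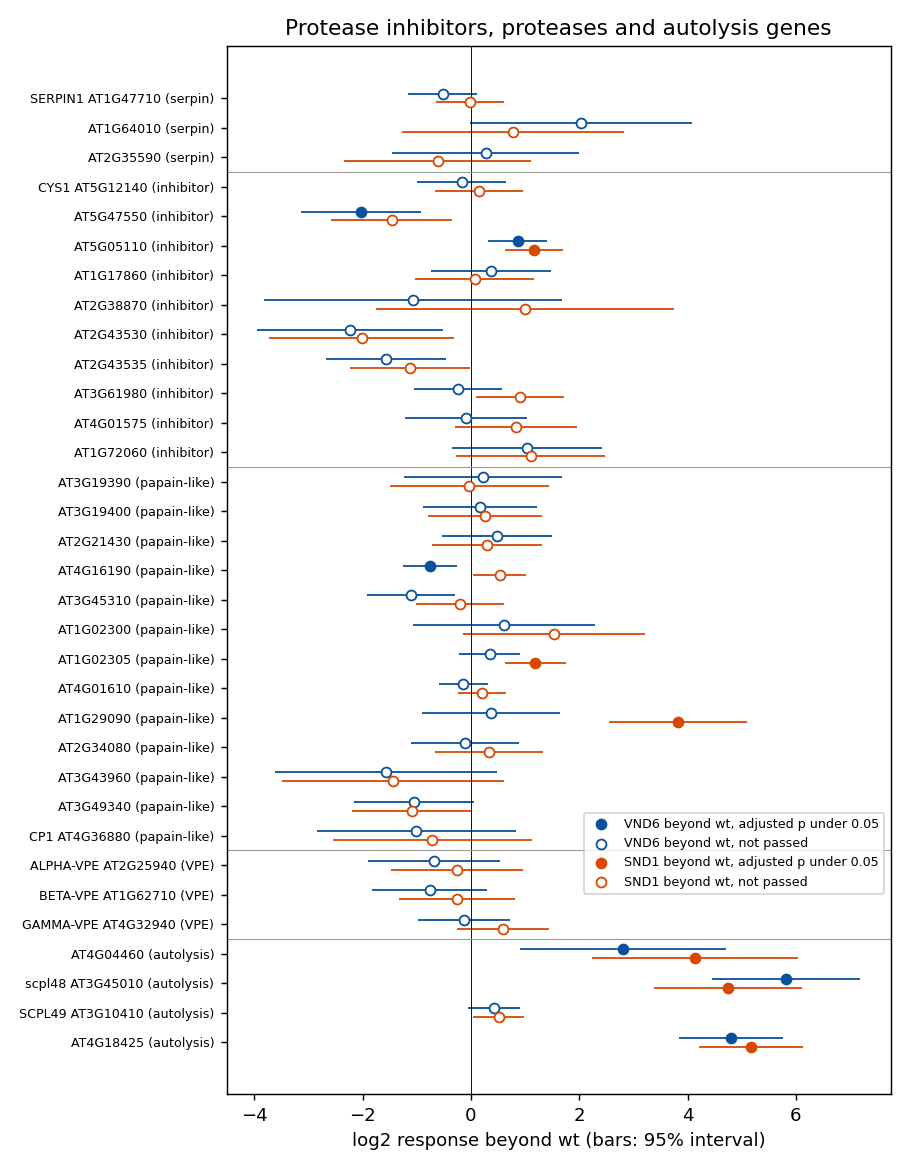
Log2 response beyond wt of the tested serpins other than AT1G62170, other inhibitors, papain-like proteases, vacuolar processing enzymes (VPE) and autolysis genes, for the VND6 line (blue) and the SND1 line (orange). Bars are 95% intervals and filled points passed at an adjusted p under 0.05. The largest VND6 response shown is 5.82, of SCPL48, against 7.81 for the serpin, whose change starts near the floor.

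The arrays themselves were alike in scale, with medians from 103 to 133, and the number of arrays limits the precision. Replicates 2 and 3 of a group were closer to each other than to replicate 1, with Spearman's rho over the tested probe sets of 0.984 to 0.991 against 0.872 to 0.958. The labels do not tell whether replicates are separate cultures, so p-values may reflect technical spread only. In VND6 cells at 12 h the serpin followed that split, with 2239.8 in replicate 1 and 3897 and 4623 in the others. As markers of other cell types, 1 of 13 photosynthesis genes and none of 6 phloem genes were named. The 1, RCA, stood at 0.03 in the VND6 response beyond wt (limma adjusted p = 0.980), and the reference genes AT2G28390 and AT4G34270 stood at 0.40 and 0.11. In bulk RNA of this kind, more cells with serpin transcript and more transcript in each cell cannot be told apart.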

How the data were processed

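Total RNA was labelled with biotin and hybridised, per the labels' protocols, which name 2 labelling kits without tying either to a sample. The deposited values are linear intensities, 1 for each probe set on an array; the submitters' processing notes name GCOS, with no version or algorithm. The trimmed mean of an array (2% off each end) was 500.05 to 500.06 on all 18 arrays, so the deposited intensities were used as given. Scanner files and detection calls were not used here.

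Values were taken as log2(value + 4.32), the 10th percentile of the table. Without the 64 control probe sets, 15715 probe sets at or above percentile 40 of their array on at least 3 arrays were fitted as 6 group means with limma 3.58.1 (R 4.3.3; eBayes with an intensity trend), and p-values were adjusted by Benjamini-Hochberg over all of them at a threshold of 0.05. The fit was tested on simulated data with independent noise on each array. That noise does not copy the closeness of replicates 2 and 3, so the simulation cannot show the rate of false calls here. The planned test of the serpin at 0 h is given as values only, since the filter let it in through the VND6 arrays at 12 h. Of the probe sets, 13436 had 1 gene matched to the RefSeq table of TAIR10.1, used for names and gene order only, and a gene with several was read by the brightest. Lists were drawn from general knowledge of the families; most loci have no class in the annotation. The gene, the lists, the alternatives and the rule for named genes were chosen with earlier results of these data known. That rule named all tested serpins, per other list the 3 genes with the smallest adjusted p in the VND6 and 2 in the SND1 response beyond wt, the 10 genes most like the serpin, and neighbours that passed.

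Arrays with the same replicate number deviated together from their groups, with correlations of 0.188 to 0.380 between the times in each line, over 0.1 in every pair, and of 0.304 to 0.486 for wt against SND1 arrays before estrogen. For wt against VND6 arrays the span was 0.0230 to 0.186. The numbers were therefore taken to pair the times within each line and wt with SND1 cells, but not wt with VND6 cells. The main fit has no replicate term, so its p-values do not use this pairing. Only the replicate block, an alternative fit given below, adds the replicate number, and it does so across all lines, wt with VND6 included.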

Additional observations from a re-analysis of the deposited data

Results flagged for a closer look

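For 2 list genes the VND6 and the SND1 response differed in a test of the difference itself. AT1G29090, listed as a papain-like cysteine protease, had a VND6 response that was -3.45 relative to the SND1 response (limma adjusted p = 0.00979), with a signal in SND1 cells of 1170.2 ± 626 at 0 h and 6418 ± 1302 at 12 h, and of 804 ± 651 and 363 ± 118 in VND6 cells (SD, n = 3). AT4G16190, of the same list, stood at -1.28 (limma adjusted p = 0.0128), with a signal of 464 ± 38.1 in VND6 cells and 969.5 ± 235 in SND1 cells at 12 h (SD, n = 3). At 0 h it was 26776 ± 1137 in VND6 and 22553 ± 1930 in SND1 cells (SD, n = 3). In wt cells it went from 29447 ± 3289 to 861 ± 80.7 (SD, n = 3), so AT4G16190 fell in all 3 lines. Under quantile normalization its adjusted p was 0.111. The serpin stood on the other side in this difference, at 7.31, a value it was chosen by. With replicates 2 and 3 averaged neither list gene passed in limma (adjusted p = 0.555 and 0.641). Groups of 3 arrays are too small for the check on single outlying samples.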

How the results depend on the processing

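The serpin's values moved by more than its replicate spread (0.81, log2) under few alternatives: the VND6 change was 9.52 without a pseudocount and 7.11 with a 4 times larger one, the VND6 minus the wt change 8.69 and 6.84 in the same order and 6.95 with replicates 2 and 3 only, and the VND6 minus the SND1 change 8.35 and 6.34. The difference between VND6 and wt cells at 0 h was -0.14 with replicates 2 and 3 only, against -1.02. Leaving out 1 array at a time gave 7.91 to 9.05, 7.37 to 8.56 and 6.88 to 8.02 for these 3 values. The serpin's difference between SND1 and wt cells at 0 h turned to -0.40 without wt replicate 2 and ran from -0.40 to 0.79 over single arrays left out. The replicate block left the serpin's values as they were and ended no call of a named gene. With it 7 list genes passed in the VND6 and 6 in the SND1 response beyond wt. Over all probe sets 2842 and 1333 passed with the block, against 2174 and 923 in the main fit.

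Of 36 tested list genes, 6 passed in each response beyond wt. With replicates 2 and 3 only there were 18 in the VND6 and 15 in the SND1 response, with these averaged 2 and 1, with only the arrays compared 2 in the VND6 response, and without 1 array 2 to 7 and 5 to 7. Over all probe sets 2174 passed in the VND6 response and 923 in the SND1 response: 7585 and 5469 with replicates 2 and 3 only, 126 and 62 with these averaged, 1049 in the VND6 response with only the arrays compared, and 1099 to 3437 and 463 to 1041 without 1 array. With only the arrays compared, limma's adjusted p in the VND6 response was 0.0915 for AT5G05110, 0.0571 for AT5G47550, 0.0688 for AT4G16190, 0.0742 for AT4G04460 and 0.0593 for AT1G62150. The cause was not tested. At the dim end of the arrays, where 15 of the 18 serpin signals lie, folds depend on the pseudocount.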
